A study of Mus musculus with 16 samples.

Results

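The genes described here encode 5 non-receptor protein tyrosine phosphatases of the mouse. They are Ptpn1 (PTP1B), Ptpn2 (TC-PTP), Ptpn6 (SHP1), Ptpn11 (SHP2) and Ptpn12 (PTP-PEST). They were found by gene symbol among the 54532 genes of the deposited expression table, and all 5 were present. RNA was sequenced from 16 end-stage tumours that grew under the skin of C57BL/6J mice of both sexes, aged 8 weeks at implantation. The implanted cells were B16F10, a mouse melanoma line that is wild-type (WT), or its counterpart BdP, which the labels describe both as deficient in Pros1 and as a Pros1 knockdown. Treatment was PBS or cisplatin, a DNA-crosslinking platinum compound. Cisplatin was injected into the peritoneum once daily at 5 mg/kg for 3 days, in 2 rounds that began 8 days after implantation. The 4 groups (WT PBS, WT cisplatin, BdP PBS and BdP cisplatin) had 4 libraries each. The Pros1 change was in the implanted cells, and the C57BL/6J hosts are a strain with an intact immune system. The labels do not say whether BdP is 1 clone or a pool, nor that each library came from a separate mouse. The p-values therefore measure the spread between these libraries.

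Protein tyrosine phosphatases remove phosphate from tyrosine residues and so oppose tyrosine kinases. PTP1B acts at the endoplasmic reticulum on insulin and leptin receptor signalling and on Janus kinases, and its close relative TC-PTP acts on Janus kinases and STAT proteins in lymphocytes and other cells. SHP1 is found mostly in blood cells and is recruited by inhibitory receptors through its SH2 domains, whereas SHP2 is found in most tissues and passes growth factor signals on to RAS. PTP-PEST dephosphorylates cytoskeletal proteins such as p130Cas. In a tumour, such enzymes can act in the melanoma cells and in the leukocytes that enter it. The title of the series names inhibition of PTP1B and the response of macrophages.

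All of these enzymes share a catalytic loop around a cysteine that attacks the phosphate. The coding stretch of that loop is shown because it is what makes the genes one family, and because it shows how far their transcripts differ at the most conserved place. Capitals mark the 24 bases that encode the signature motif, and the flanking bases are in lower case. Sequences run 5′ to 3′ on the coding strand and come from GENCODE M21 transcripts (GRCm38).
Ptpn1: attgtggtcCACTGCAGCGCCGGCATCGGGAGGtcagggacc
Ptpn6: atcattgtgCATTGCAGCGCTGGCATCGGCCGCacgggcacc
Ptpn11: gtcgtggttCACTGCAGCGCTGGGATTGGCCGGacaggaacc
Ptpn12: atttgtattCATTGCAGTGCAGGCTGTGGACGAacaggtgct

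The signature occurred once in the longest open reading frame of each gene, and the stretch of Ptpn2 is not shown. Its cysteine lay at codon 215 of 432 in Ptpn1, at codon 455 of 597 in Ptpn6, at codon 463 of 597 in Ptpn11 and at codon 231 of 775 in Ptpn12. Ptpn2 and Ptpn6 were identical at 21 of the 24 signature bases, the most of any pair. Ptpn6 and Ptpn11 were identical at 20, and Ptpn1 and Ptpn12 at 15, the fewest. The longest run of bases shared by any transcripts of Ptpn6 and Ptpn11 was 17, and that of Ptpn1 and Ptpn11 was 13. The longest runs of the other pairs lay between 11 and 14 bases. Each of Ptpn6, Ptpn11 and Ptpn12 overlaps 1 other annotated gene, and none of these overlapping genes exceeded 0.228 FPKM in any library.

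Expression is given as FPKM, a count of fragments divided by gene length and by a divisor for each library, so levels of different genes can be compared. The divisor tracked the median ratio of gene counts between libraries and not the total of assigned reads. Reads assigned to genes ran from 10051843 to 27055771 per library. Mitochondrial transcripts took 76.9% of the reads in WT PBS 1, which left 2322202 reads for all other genes. They took 12.2% in WT cisplatin 3, 21.7% in WT cisplatin 4 and 2.03% to 5.06% in the remaining 13 libraries. The read counts behind the 5 genes were lowest in WT PBS 1, from 41 reads for Ptpn12 to 462 for Ptpn11, and the medians over all libraries were 721.5 for Ptpn12 and 2851.5 for Ptpn11. Pros1, the gene that BdP cells lack or express less of, had a mean of 8.38 ± 2.76 FPKM (SD, n = 8) in WT and 1.86 ± 0.457 FPKM (SD, n = 8) in BdP tumours, with no overlap between the genotypes. Markers of melanocytes were high in every library, with a mean log2(FPKM + 1) of the 8 markers between 8.44 and 8.86. Most markers of endothelium, skeletal muscle and skin keratinocytes stayed below 1 FPKM in every library (6 of 8, 5 of 6 and 5 of 6).

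All 5 phosphatases were expressed in every library, and Ptpn6 was the highest on average. The means over 16 libraries were 27.2 FPKM for Ptpn6, 17.3 for Ptpn11, 14.7 for Ptpn2, 11.8 for Ptpn1 and 8.51 for Ptpn12. Ptpn6 ranked first among the 5 in 13 libraries, including 8 of 8 BdP libraries and 5 of 8 WT libraries, and Ptpn11 ranked first in the other 3. Ptpn12 ranked last in 15 of 16 libraries. The spread between libraries differed among the genes, with coefficients of variation of 55.8% for Ptpn6, 27.2% for Ptpn1, 23.6% for Ptpn11, 17.8% for Ptpn12 and 12.0% for Ptpn2. Once group means were removed, the spread of Ptpn6 stood at the 89.2 percentile of the 12319 genes tested and that of Ptpn2 at the 19.4 percentile.

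**Figure D1:**
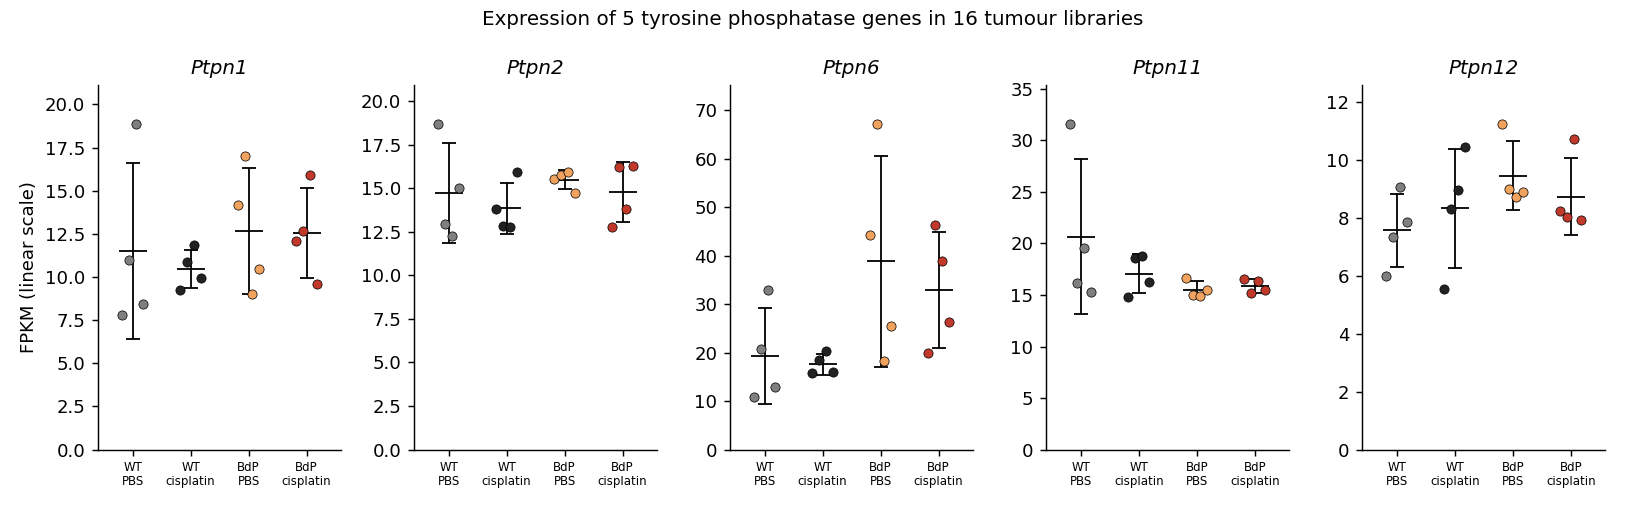
FPKM (linear axis from 0, with its own range for each gene) of the 5 phosphatase genes in 16 tumour libraries by group; points are libraries, and bars are the mean and SD of 4 libraries. Ptpn6 spans 10.8 to 67.1 FPKM and Ptpn2 only 12.3 to 18.7, and the single high point of Ptpn11 (31.6) is WT PBS 1.

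Ptpn6 (ENSMUSG00000004266, minus strand of chr6:124720707-124738714, GRCm38) encodes SHP1. Its levels in WT PBS tumours were 10.8, 20.7, 32.8 and 13.0 FPKM in replicates 1 to 4. In WT cisplatin tumours they were 15.8, 18.5, 20.3 and 15.95 FPKM. In BdP PBS tumours they were 44.2, 67.1, 18.3 and 25.5 FPKM, and in BdP cisplatin tumours 19.9, 46.4, 38.9 and 26.4 FPKM. Most BdP libraries were higher than most WT libraries, but the genotypes overlapped. WT PBS 3 lay above 4 of the 8 BdP libraries. WT PBS 2 and WT cisplatin 3 lay above BdP PBS 3 and BdP cisplatin 1, and WT cisplatin 2 lay above BdP PBS 3. The group means were ordered from 17.6 ± 2.16 (SD, n = 4) in WT cisplatin through 19.3 ± 9.96 in WT PBS and 32.9 ± 12.0 in BdP cisplatin to 38.8 ± 21.8 in BdP PBS. Only the step from WT PBS to BdP cisplatin was larger than the larger of the 2 SDs.

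Averaged over both treatments, Ptpn6 was 0.86 ± 0.27 (SE) higher in BdP than in WT tumours on the log2(FPKM + 1) scale, with a 95% confidence interval of 0.28 to 1.44. It did not pass the limma test (adjusted p = 0.0761, Benjamini-Hochberg over all 12319 genes tested, threshold 0.05). An exact permutation test of this gene alone, which rearranged genotypes within each treatment in 4900 ways, gave a two-sided p of 0.0131. The difference was 0.93 ± 0.39 under PBS (limma adjusted p = 0.212, exact permutation p = 0.143). Under cisplatin it was 0.80 ± 0.39 (limma adjusted p = 0.377, exact permutation p = 0.0571). Leaving out each library in turn gave averaged differences of 0.71 to 1.01, with limma adjusted p-values up to 0.14 and a call in 2 of 16 cases. These 2 were the omission of WT PBS 3, the highest WT library (1.01, limma adjusted p = 0.026), and of BdP PBS 3, the lowest BdP library (1.01, 0.0368). Leaving out either of these libraries widens the difference by construction. Leaving out the 3 libraries with the largest mitochondrial shares gave 0.77 (limma adjusted p = 0.174).

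Leukocyte markers differed in the same direction as Ptpn6. The mean log2(FPKM + 1) of 10 general leukocyte genes (Ptprc, Cd53, Laptm5, Coro1a, Itgb2, Cd52, Rac2, Lcp1, Arhgdib and Cd37) ran from 1.87 to 5.47 in WT PBS, from 2.47 to 4.83 in WT cisplatin, from 3.83 to 6.53 in BdP PBS and from 4.31 to 5.64 in BdP cisplatin. All 10 markers had a positive difference between BdP and WT averaged over treatments, none passed the limma test, and the score differed by 1.51 (exact permutation p = 0.018, adjusted p = 0.471 over 66 score comparisons). The score of 8 B and plasma cell markers had the largest difference, 2.21 (exact permutation p = 0.0253, adjusted p = 0.471), with 0.507 to 2.09 in WT PBS, 0.979 to 4.41 in WT cisplatin, 1.68 to 6.42 in BdP PBS and 0.897 to 5.87 in BdP cisplatin. The score of 10 T cell markers differed by 1.33 (exact permutation p = 0.031, adjusted p = 0.471) and that of 10 macrophage markers by 0.63 (exact permutation p = 0.27, adjusted p = 0.725). The score of 8 neutrophil markers, 4 of them below 1 FPKM in every library, differed by -0.24 (exact permutation p = 0.204, adjusted p = 0.612). In WT PBS 4, the library with the lowest general leukocyte score (1.87), Ptpn6 still stood at 13.0 FPKM. The part of leukocytes in the Ptpn6 difference was not tested. In bulk tumours, fewer cells of a type and less RNA per cell cannot be told apart.

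Ptpn11 (ENSMUSG00000043733, minus strand of chr5:121130533-121191397) encodes SHP2, the phosphatase that most cell types use between growth factor receptors and RAS. Its levels were 31.6, 16.1, 19.5 and 15.3 FPKM in WT PBS and 14.8, 18.5, 18.8 and 16.2 FPKM in WT cisplatin. They were 16.7, 15.0, 14.9 and 15.5 FPKM in BdP PBS and 16.5, 15.2, 16.3 and 15.5 FPKM in BdP cisplatin. The BdP libraries stayed within a narrow band, and the highest value belonged to WT PBS 1, the library with 76.9% mitochondrial reads. Averaged over treatments, the difference was -0.21 ± 0.12 (SE, limma adjusted p = 0.268), and it was -0.09 without the 3 libraries richest in mitochondrial reads.

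The ratio of Ptpn6 to Ptpn11, the pair of SH2-domain phosphatases, had a mean of 1.04 ± 0.379 (SD, n = 8) in WT and 2.29 ± 1.11 (SD, n = 8) in BdP tumours. It exceeded 1 in 5 of 8 WT libraries and in 8 of 8 BdP libraries. It ranged from 0.341 to 1.68 in WT and from 1.20 to 4.48 in BdP, so the genotypes overlapped.

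Ptpn1 (ENSMUSG00000027540, plus strand of chr2:167932057-167979385) encodes PTP1B, the enzyme that the title of the series names. Its levels were 7.77, 11.01, 18.9 and 8.41 FPKM in WT PBS and 9.27, 10.9, 11.8 and 9.93 FPKM in WT cisplatin. They were 14.2, 17.0, 8.99 and 10.5 FPKM in BdP PBS and 12.1, 12.7, 15.9 and 9.57 FPKM in BdP cisplatin. The groups overlapped, and both the lowest and the highest library were WT PBS tumours. The difference between BdP and WT averaged over treatments was 0.20 ± 0.17 (SE), with a 95% confidence interval of -0.16 to 0.56 (limma adjusted p = 0.486). Cisplatin minus PBS was -0.05 (95% confidence interval -0.56 to 0.46) in WT and 0.01 (-0.50 to 0.52) in BdP tumours. These intervals leave room for changes of either sign at this number of libraries.

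Ptpn2 (ENSMUSG00000024539, minus strand of chr18:67665511-67724595) encodes TC-PTP and varied least. Its levels were 18.7, 12.9, 12.3 and 15.0 FPKM in WT PBS and 13.8, 12.9, 12.8 and 15.9 FPKM in WT cisplatin. They were 15.5, 15.7, 15.9 and 14.7 FPKM in BdP PBS and 12.8, 16.2, 13.8 and 16.3 FPKM in BdP cisplatin. The groups overlapped throughout, and the highest library was again WT PBS 1. BdP minus WT averaged over treatments was 0.09 ± 0.09 (SE), with a 95% confidence interval of -0.10 to 0.27 (limma adjusted p = 0.558). Its level was above that of Ptpn1, its closest relative here, in most libraries, and the ratio of Ptpn1 to Ptpn2 exceeded 1 in 1 of 8 WT and 2 of 8 BdP libraries.

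Ptpn12 (ENSMUSG00000028771, minus strand of chr5:20986645-21055911) encodes PTP-PEST, which acts on adhesion and cytoskeletal proteins. Its levels were 5.98, 7.34, 9.04 and 7.86 FPKM in WT PBS and 5.55, 8.30, 8.97 and 10.4 FPKM in WT cisplatin. They were 11.2, 8.99, 8.71 and 8.87 FPKM in BdP PBS and 8.23, 8.03, 10.7 and 7.91 FPKM in BdP cisplatin. The groups overlapped. BdP minus WT averaged over treatments was 0.19 ± 0.11 (SE, limma adjusted p = 0.319).

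None of the 5 genes was called in any of the 7 comparisons by limma at an adjusted p below 0.05. With cisplatin against PBS, the percentage of all tested genes called was 0.00812% in WT tumours (1 gene), 0% in BdP tumours and 0% averaged over genotypes, and the interaction of genotype and treatment gave 0%. The numbers of genes at an unadjusted limma p below 0.05 in these 4 were 953, 542, 781 and 691, and limma's voom on reads recovered from the FPKM called 1 gene in the interaction, 3 in WT tumours and 0 in the other 2. BdP against WT called 0.99% of genes under PBS (51 higher, 71 lower) and 1.07% under cisplatin (43 higher, 89 lower). When libraries were rescaled to equal totals over genes outside the mitochondrial genome, these became 4 higher and 1 lower under PBS. Under cisplatin they became 4 higher and 25 lower. Those totals were sums of FPKM and still held haemoglobin transcripts, whose share of them was not computed. As a share of assigned reads, haemoglobin ran from 0.00199% in BdP cisplatin 2 to 15.5% in WT PBS 2. The 6 markers of erythroid cells, haemoglobin genes among them, summed to between 21.4 and 207170 FPKM per library. The part of haemoglobin in the change of these counts was not tested. The averaged comparison called 5.86% of genes, 2.77% higher and 3.09% lower in BdP. In that comparison 4 of the 5 phosphatases had a positive difference, with a median of 0.19 against 0.01 over all genes tested. The 5 differences for cisplatin averaged over genotypes lay between -0.09 and -0.001.

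**Figure D2:**
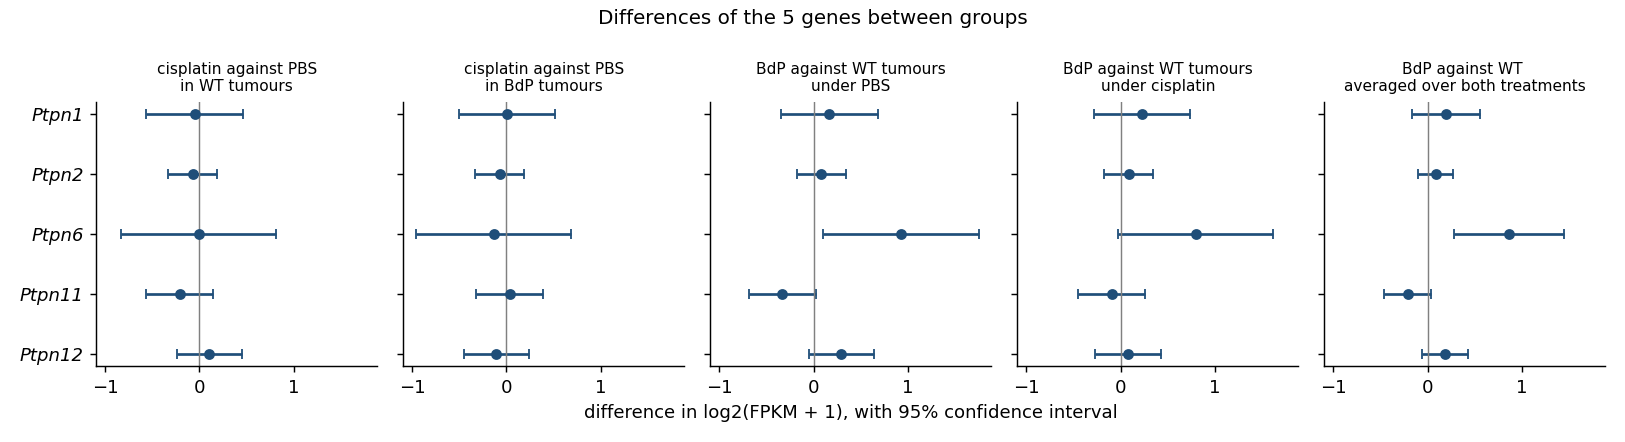
Differences in log2(FPKM + 1) with 95% confidence intervals (x axis) for the 5 phosphatase genes (y axis) in 5 comparisons from limma over 16 libraries. The intervals are not adjusted for the number of genes tested. That of Ptpn6 lies above 0 for BdP against WT under PBS (0.10 to 1.75) and averaged over treatments (0.28 to 1.44). The intervals of the other genes include 0 in each comparison drawn.

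Across the 16 tumours, Ptpn6 and Ptpn1 varied with the leukocyte markers, and no such relation was detected for Ptpn2 and Ptpn11. For Ptpn6 the Pearson r with the leukocyte score was 0.912 (permutation p = 1e-05, the smallest that 100000 permutations can give, adjusted p = 0.0002 over 20 relations) and Spearman's rho was 0.956 (permutation p = 1e-05, adjusted p = 0.0002). For Ptpn1 r was 0.819 (permutation p = 0.00012, adjusted p = 0.0008) and rho was 0.847 (permutation p = 4e-05, adjusted p = 0.0004). Leaving out the 2 tumours farthest from the median score (WT PBS 4 and BdP PBS 2) gave an r of 0.899 for Ptpn6 and 0.763 for Ptpn1. With group means removed, r was 0.861 for Ptpn6 (adjusted permutation p = 0.005) and 0.843 for Ptpn1 (adjusted permutation p = 0.006), and without the 3 libraries richest in mitochondrial reads it was 0.942 and 0.802. Of all genes tested, 1.94% had an r with the score at or above that of Ptpn6 and 4.68% at or above that of Ptpn1.

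Ptpn12 had an r of 0.616 with the leukocyte score (permutation p = 0.0111, adjusted p = 0.0553) and a rho of 0.662 (permutation p = 0.00696, adjusted p = 0.0309), so it passed the threshold by rank only, and r was 0.712 without the 2 farthest tumours and 0.525 with group means removed (adjusted permutation p = 0.233). For Ptpn2 r was -0.04 (permutation p = 0.875, adjusted p = 0.891) and rho 0.003 (permutation p = 0.996, adjusted p = 0.996). For Ptpn11 r was -0.20 (permutation p = 0.48, adjusted p = 0.64) and rho 0.08 (permutation p = 0.762, adjusted p = 0.896). No relation of a phosphatase with the melanocyte score passed the adjustment, and their r values lay between -0.40 and 0.31 over a score that varied little. Without the 2 tumours farthest from the median of that score (WT PBS 4 and BdP PBS 3) r went from -0.403 to -0.734 for Ptpn6, from -0.336 to -0.545 for Ptpn12, from -0.275 to -0.499 for Ptpn1 and from -0.148 to -0.262 for Ptpn2, and it was 0.419 for Ptpn11. These values were not tested.

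Among the pairs of phosphatases, Ptpn1 and Ptpn6 varied together with an r of 0.831 (permutation p = 0.00011, adjusted p = 0.0008) and a rho of 0.844 (permutation p = 0.00012, adjusted p = 0.0008). Their r was 0.839 without the 2 tumours farthest in Ptpn1 (WT PBS 3 and BdP PBS 2) and 0.878 with group means removed. Ptpn1 and Ptpn12 had an r of 0.571 (permutation p = 0.0206, adjusted p = 0.0825) and a rho of 0.647 (permutation p = 0.00772, adjusted p = 0.0309). Ptpn2 and Ptpn11 had an r of 0.224 (permutation p = 0.43, adjusted p = 0.614) that rested on WT PBS 1, the highest library for both, and it was -0.713 without the 3 libraries richest in mitochondrial reads (adjusted permutation p = 0.0189).

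**Figure D3:**
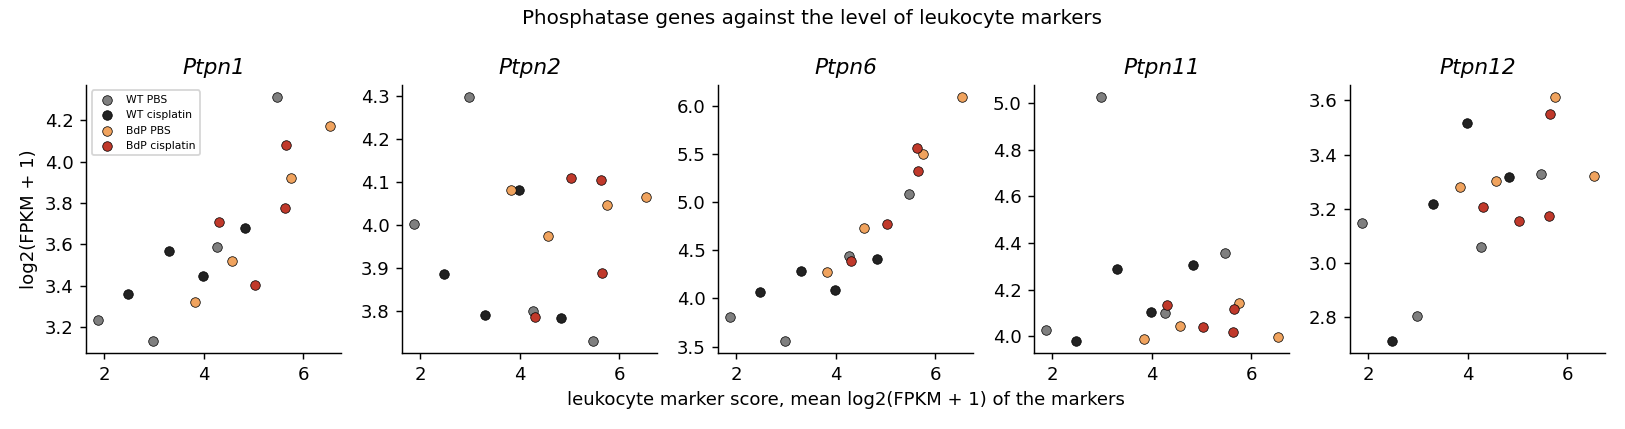
log2(FPKM + 1) of each phosphatase gene (y axis, with its own range) against the mean log2(FPKM + 1) of 10 leukocyte markers (x axis), with 1 point per tumour library coloured by group. Ptpn6 (r = 0.912) and Ptpn1 (r = 0.819) climb with the score, no such trend is visible for Ptpn2 and Ptpn11, and WT PBS 1 stands apart at the top for both of the latter.

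The genes most like each phosphatase were taken as the 3 with the highest r over the 16 libraries after group means were removed, among 6476 others with a mean of at least 5 FPKM. For Ptpn6 these were Fnbp1 (r of 0.971, and 0.969 before the removal), Nfkb2 (0.96 and 0.904) and Nfkb1 (0.958 and 0.934). Nfkb1 and Nfkb2 encode NF-kB subunits. For Ptpn1 they were Cap1 (0.941 and 0.914), Pak2 (0.937 and 0.922) and Esyt1 (0.936 and 0.898), of which Cap1 binds actin and Pak2 is a kinase downstream of small GTPases. For Ptpn2 they were Mien1 (0.878 and 0.772), Nol7 (0.877 and 0.764) and Ier3ip1 (0.866 and 0.693). For Ptpn11 they were Icmt (0.973 and 0.972), Nek9 (0.967 and 0.924) and Uhmk1 (0.961 and 0.773). Ptpn11 stood at 31.6 FPKM in WT PBS 1 and between 14.8 and 19.5 FPKM in every other library. WT PBS 1 was also the highest library for Ptpn2, and r without it was not computed for these genes. For Ptpn12 they were Zfp703 (0.936 and 0.916), Spty2d1 (0.904 and 0.896) and Trib1 (0.889 and 0.897). These values are descriptions without a test, since the genes were picked for them and all points share their libraries.

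Janus kinases and STAT proteins are substrates or targets of PTP1B, TC-PTP and SHP1, and the SOCS family genes Socs1, Socs3 and Cish encode feedback inhibitors of the same pathway. Of 14 tested Janus kinase, STAT and SOCS family genes, 4 were higher in BdP than in WT tumours averaged over treatments and 0 were lower, where 2.77% of all genes were called higher. They were Jak1, Jak2, Jak3 and Stat3, and none of the SOCS family genes was among them (Socs3 had a difference of 0.94 ± 0.35, SE, limma adjusted p = 0.111). All 14 had a positive difference, with a median of 0.45 against 0.01 over all genes tested. Neither treatment alone gave a call in this list. Without the 3 libraries richest in mitochondrial reads only Jak2 was called, and after rescaling over genes outside the mitochondrial genome none was, although all 14 differences stayed positive. That rescaling raised the median difference of all genes to 0.18.

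Jak2, the kinase of many hormone and cytokine receptors, had 5.80, 5.75, 8.79 and 5.39 FPKM in WT PBS and 5.28, 6.06, 6.58 and 7.92 FPKM in WT cisplatin. It had 10.4, 11.4, 7.79 and 10.2 FPKM in BdP PBS and 7.78, 9.11, 9.06 and 8.93 FPKM in BdP cisplatin. WT PBS 3 and WT cisplatin 4 reached into the BdP range. Its difference was 0.48 ± 0.10 (SE, limma adjusted p = 0.0166), and it stayed called with each library left out in turn. Jak3, the kinase of the common gamma chain receptors of lymphocytes, had 2.01, 3.44, 7.66 and 2.33 FPKM in WT PBS and 3.82, 5.38, 5.23 and 4.09 FPKM in WT cisplatin. It had 11.2, 11.8, 4.93 and 7.65 FPKM in BdP PBS and 7.55, 7.90, 9.31 and 8.67 FPKM in BdP cisplatin. WT PBS 3, WT cisplatin 2 and WT cisplatin 3 lay within the BdP range, whose lowest library was BdP PBS 3. Its difference was 0.92 ± 0.21 (SE, limma adjusted p = 0.0191), and leaving out the 3 libraries with the largest mitochondrial shares gave a limma adjusted p of 0.0755.

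Jak1, the kinase of interferon receptors among others, had a mean of 15.8 ± 4.30 FPKM (SD, n = 8) in WT and 24.8 ± 5.99 FPKM (SD, n = 8) in BdP tumours. Its difference was 0.62 ± 0.17 (SE, limma adjusted p = 0.0468). Stat3, the transcription factor below IL-6 family receptors, had means of 20.54 ± 4.14 and 27.7 ± 3.77 FPKM (SD, n = 8) and a difference of 0.43 ± 0.11 (SE, limma adjusted p = 0.043). The call was lost on leaving out single libraries in 13 of 16 cases for Jak1 and in 12 of 16 for Stat3, with largest adjusted p-values of 0.103 and 0.0959. The leukocyte score moved with these genes too, with r of 0.939 for Jak1, 0.864 for Jak2, 0.874 for Jak3 and 0.602 for Stat3. Its part in their differences was not tested.

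**Figure D4:**
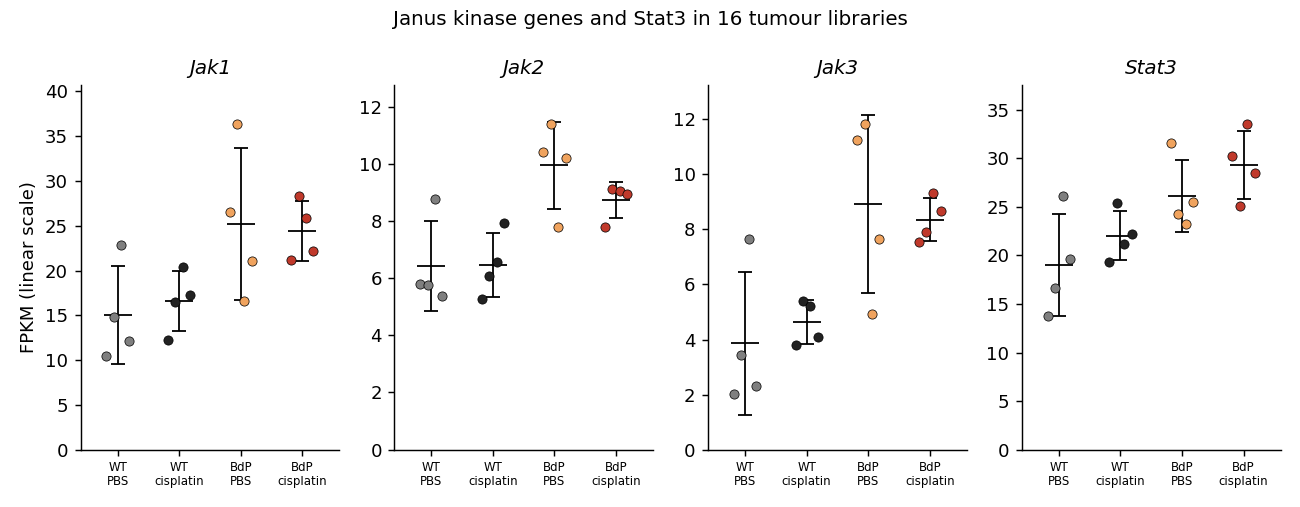
FPKM (linear axis from 0) of Jak1, Jak2, Jak3 and Stat3 in 16 tumour libraries by group; points are libraries, and bars are the mean and SD of 4 libraries. BdP means exceed WT means for each gene (for Jak2, 9.33 against 6.45 FPKM over 8 libraries each), and single libraries such as WT PBS 3 overlap the BdP range.

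Among 10 tested receptor and Src family kinases and insulin receptor substrates, 2 were higher and 1 was lower in BdP tumours averaged over treatments, where 2.77% of all genes were called higher and 3.09% lower. Kit, the stem cell factor receptor of melanocytes and mast cells, had 2.01, 1.35, 1.40 and 0.837 FPKM in WT PBS and 1.16, 0.714, 1.07 and 1.25 FPKM in WT cisplatin. It had 2.55, 2.87, 6.35 and 7.19 FPKM in BdP PBS and 3.89, 2.75, 2.83 and 2.96 FPKM in BdP cisplatin. Every BdP library lay above every WT library. Its difference was 1.09 ± 0.17 (SE, limma adjusted p = 0.0024) and was also called under PBS (1.18 ± 0.25, limma adjusted p = 0.0338) but not under cisplatin (1.00 ± 0.25, limma adjusted p = 0.0663). Adding 1 to FPKM understates the fold of such a low gene, and voom on recovered reads gave 1.74.

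Igf1r, the receptor of insulin-like growth factor, was 0.45 ± 0.10 (SE) higher averaged over treatments (limma adjusted p = 0.0169), with 0.976 to 1.91 FPKM in WT and 1.88 to 3.17 FPKM in BdP libraries. It was also called under PBS (0.64 ± 0.14, limma adjusted p = 0.0429), a call lost on leaving out 13 of 16 single libraries, and that of Kit under PBS was lost in 7 of 16. Insr, the insulin receptor and a textbook substrate of PTP1B, had a difference of 0.43 ± 0.13 (SE) that did not pass (limma adjusted p = 0.0542). Src, a kinase that PTP1B can activate by removing its inhibitory phosphate, was 0.39 ± 0.08 (SE) lower (limma adjusted p = 0.0157). Its levels were 15.7 to 24.6 FPKM in WT and 11.5 to 15.96 FPKM in BdP libraries, which overlapped slightly. The r with the leukocyte score was -0.674 for Src, 0.577 for Igf1r and 0.373 for Kit, and the part of leukocytes in their differences was not tested. Met was the highest gene of the list at a mean of 135 FPKM, with a difference of -0.14 ± 0.15 (SE, limma adjusted p = 0.569). After the rescaling named above Kit alone kept its call in this list (limma adjusted p = 0.00457).

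Of 15 tested adaptors and RAS pathway genes downstream of SHP2, 0 were called higher and 2 lower averaged over treatments, where 3.09% of all genes were called lower. The median difference was -0.10 against 0.01 over all genes tested. Nras, a RAS gene, had 17.9 to 33.5 FPKM in WT and 12.8 to 16.4 FPKM in BdP libraries, with no overlap. Its difference was -0.50 ± 0.10 (SE, limma adjusted p = 0.0124), and it was -0.41 without the 3 libraries richest in mitochondrial reads, among them WT PBS 1 with the value of 33.5. Shc1, an adaptor also listed among the partners of PTP-PEST, had a difference of -0.35 ± 0.09 (SE, limma adjusted p = 0.0351), lost on leaving out 7 of 16 single libraries. The r with the leukocyte score was -0.48 for Nras and -0.563 for Shc1, and the part of leukocytes in their differences was not tested. The rescaling turned the median of this list to 0.09, below the median of all genes of 0.18, and called neither gene. In the list of 10 PTP-PEST partners and substrates, Shc1 was the 1 gene called averaged over treatments. Of these 10 genes, 8 had a positive difference, with a median of 0.26 against 0.01 over all genes tested. The 2 negative ones were Shc1 and Bcar1. Bcar1, which encodes p130Cas, had a difference of -0.09 ± 0.15 (SE, limma adjusted p = 0.746).

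Of 18 tested inhibitory receptors that recruit SHP1 or SHP2, 17 had a positive difference averaged over treatments, with a median of 0.66 against 0.01 over all genes, and 1 was called higher, where 2.77% of all genes were. The leukocyte score was 1.51 higher in the same comparison, and its part in these differences was not tested. The gene called was Ceacam1, at 0.41 ± 0.11 (SE, limma adjusted p = 0.0449), which lost its call on leaving out 12 of 16 single libraries and on omission of the 3 libraries with the largest mitochondrial shares (limma adjusted p = 0.0841). Its r with the leukocyte score was 0.735. Sirpa, the receptor of macrophages for CD47, had the highest mean of the list at 34.8 FPKM and a difference of 0.66 ± 0.20 (SE, limma adjusted p = 0.0616). Pdcd1, which encodes PD-1, ran from 0 to 13.2 FPKM with a difference of 0.89 ± 0.55 (SE, limma adjusted p = 0.326).

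None of the other phosphatases passed the test between genotypes averaged over treatments, where 5.86% of all genes were called. The test covered 9 of 12 further non-receptor genes and 8 of 21 receptor genes. Their median differences were 0.16 and 0.15, against 0.01 over all genes tested. Ptpn23 was the highest of the further non-receptor genes at 20.3 FPKM, above Ptpn11 and below Ptpn6, and Ptpn20 was listed at 0 in every library. Ptpn22, a lymphocyte phosphatase, had 0.0559 to 4.25 FPKM and a difference of 0.85 ± 0.32 (SE, limma adjusted p = 0.12). Among receptor types, Ptprm was the highest at 21.9 FPKM with a difference of -0.12 ± 0.15 (SE, limma adjusted p = 0.659), and Ptprt the lowest at 0.00048 FPKM. Ptprc, which encodes the leukocyte antigen CD45 and is 1 of the 10 leukocyte markers, ran from 0.19 to 20.9 FPKM and had a difference of 1.55 ± 0.51 (SE, limma adjusted p = 0.085).

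Of the 5 genes of Pros1, Gas6 and their TAM receptors, Pros1 alone was called, lower in BdP tumours by limma in 3 comparisons. Its difference was -1.54 ± 0.17 (SE, adjusted p = 0.00092) under PBS, where 0.99% of all genes were called. It was -1.80 ± 0.17 (adjusted p = 0.000103) under cisplatin, where 1.07% were called. Averaged over treatments it was -1.67 ± 0.12 (adjusted p = 2.76e-06), where 5.86% were called. Rescaling over genes outside the mitochondrial genome ended the call under PBS (-1.43, limma adjusted p = 0.065), where the median of all genes became 0.42. Averaged over treatments, Axl, a TAM receptor, had a difference of 1.21 ± 0.47 (SE, limma adjusted p = 0.129). Mertk, the TAM receptor of macrophages, had one of 0.37 ± 0.18 (SE, limma adjusted p = 0.217). Gas6 and the TAM receptor Tyro3 had 0.11 and -0.04 under PBS, and 0.04 and 0.14 under cisplatin. The median of the 5 genes averaged over treatments was 0.07, against 0.01 over all genes tested.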

How the data were processed

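Gene expression was measured by RNA sequencing in 16 tumours, 4 per group. The deposited table gives FPKM that the authors made on GRCm38 (mm10) using featureCounts 1.5.0-p3, HISAT2 2.0.5 and CASAVA, per the submitters' processing notes. The labels' protocols name the NEBNext Ultra kit and do not state strand. The product of FPKM and gene length came in whole steps in 100% of values (tolerance 0.1 read), which gave the reads behind each value, and the values were already scaled between libraries.

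The test covered 12319 genes that reached 1 FPKM in 4 or more libraries. Group means were fitted to log2(FPKM + 1) by limma 3.58.1 in R 4.3.3, using all 16 libraries, a mean-variance trend and 7 contrasts, and p-values were adjusted by Benjamini-Hochberg over all genes tested (threshold 0.05). This scale understates changes of low genes. Errors are SE for differences and SD for levels. Marker scores and single genes were compared with exact two-sided permutation tests (70 rearrangements of 4 against 4, so the smallest p is 0.0286, or 4900 within treatments), and correlations with 100000 permutations (Python 3.11.15, scipy 1.17.1). Signature sequences were found by translating the longest open reading frame of GENCODE M21 transcripts. The fit was tested on simulated data with the same spread for every gene, smaller than that of Ptpn6 and of Ptpn1. For BdP against WT it called 17.9% of genes changed 1.5-fold under PBS and 43.3% averaged over treatments. For genes changed 2-fold these were 85.1% and 100%.

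The phosphatases and the 8 pathway and 11 marker lists were chosen with earlier results of these data known. Named genes were the members and, in each pathway list, up to 4 called genes with the smallest p, besides the highest and lowest expressed further phosphatases and, for likeness, the 3 genes with the highest r. Socs3, Insr, Met, Bcar1, Sirpa, Pdcd1, Ptpn22, Ptprc, Axl, Mertk, Gas6 and Tyro3 were chosen after their values were seen. Alternatives were a pseudocount of 0.1, no filter, rescaling over genes outside the mitochondrial genome, a replicate block, leaving out each library and the 3 richest in mitochondrial reads, and, chosen after seeing the data, limma's voom on recovered reads.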

Additional observations from a re-analysis of the deposited data

Results flagged for a closer look

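Within groups of 4 libraries, the highest or lowest value stood apart from the others (a gap to its nearest neighbour, as a share of the group's range, above Dixon's 95% critical value) in 6 of 64 cases checked. Chance alone flags about 1 in 20 groups. Among the phosphatases this applied to Ptpn12 in BdP PBS 1 (11.2 FPKM) and in BdP cisplatin 3 (10.7 FPKM), each the highest of its group. Jak2 stood apart as the highest of its group in WT PBS 3 (8.79 FPKM) and as the lowest in BdP cisplatin 1 (7.78 FPKM). Nras was high in WT PBS 1 (33.5 FPKM), the library with the largest mitochondrial share, and Pros1 was low in BdP PBS 4 (1.235 FPKM).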

How the results depend on the processing

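None of the 35 differences of the phosphatases (5 genes in 7 comparisons) passed the threshold under the alternatives other than leaving out 1 library, and 21 of those 210 values changed sign. Of these, 13 came from rescaling over genes outside the mitochondrial genome, which moved all genes together. It took the median of all genes to 0.49 for cisplatin against PBS in WT tumours, 0.42 for BdP against WT under PBS, 0.26 for cisplatin averaged over genotypes and -0.45 for the interaction. With that median taken off in both fits, no difference of a phosphatase moved by more than 0.0551, and 1 changed sign, Ptpn6 for cisplatin in WT tumours. The values given for the rescaling include the shift. For cisplatin in WT tumours it gave 0.47 for Ptpn1, 0.46 for Ptpn2, 0.53 for Ptpn6 and 0.33 for Ptpn11. For cisplatin averaged over genotypes it gave 0.26, 0.21, 0.22, 0.20 and 0.27 for Ptpn1, Ptpn2, Ptpn6, Ptpn11 and Ptpn12. The interaction became -0.42 for Ptpn1, -0.49 for Ptpn2 and -0.25 for Ptpn11, and Ptpn11 in BdP against WT under PBS became 0.10. With voom on recovered reads, the interaction was -0.074 for Ptpn2 and 0.022 for Ptpn6, and cisplatin in WT tumours was -0.018 for Ptpn12. Without the 3 libraries richest in mitochondrial reads, the interaction was -0.064 for Ptpn2, 0.13 for Ptpn6 and 0.11 for Ptpn12, cisplatin averaged over genotypes was 0.0025 for Ptpn11, and cisplatin in WT tumours was -0.21 for Ptpn12. The cause of these 8 sign changes was not tested.

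Leaving out single libraries changed the sign in 48 of 560 values and made 2 calls, both for Ptpn6 in BdP against WT averaged over treatments (0.71 to 1.01). For cisplatin in WT tumours the ranges were -0.20 to 0.20 (Ptpn1), -0.15 to 0.041 (Ptpn2), -0.23 to 0.28 (Ptpn6), -0.32 to 0.0086 (Ptpn11) and -0.0024 to 0.27 (Ptpn12). In BdP tumours they were -0.13 to 0.15 (Ptpn1) and -0.43 to 0.18 (Ptpn6). Averaged over genotypes they were -0.094 to 0.10 (Ptpn1), -0.22 to 0.086 (Ptpn6), -0.15 to 0.020 (Ptpn11) and -0.055 to 0.079 (Ptpn12). For the interaction they were -0.19 to 0.21 (Ptpn1), -0.11 to 0.078 (Ptpn2) and -0.42 to 0.19 (Ptpn6), and for Ptpn12 in BdP against WT under cisplatin -0.079 to 0.19.

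With group means removed, the r of Ptpn11 with the leukocyte score turned to 0.095. Without the 3 libraries richest in mitochondrial reads, r with that score was 0.222 for Ptpn2 and 0.141 for Ptpn11. The same omission gave an r of 0.50 for Ptpn1 with Ptpn11, 0.331 for Ptpn2 with Ptpn6, -0.713 for Ptpn2 with Ptpn11, 0.153 for Ptpn2 with Ptpn12, 0.033 for Ptpn6 with Ptpn11 and 0.336 for Ptpn11 with Ptpn12.

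The count of all genes called in BdP against WT averaged over treatments was 722, against 449 with no filter (more genes tested), 68 after the rescaling and 370 to 1619 on leaving out single libraries, the highest without WT PBS 3 and the lowest without WT cisplatin 1. Under PBS it was 122, against 56 with no filter, 5 after the rescaling, 50 without the 3 libraries and 25 to 356 on leaving out single libraries. Under cisplatin it was 132, against 29 after the rescaling, 231 with voom, 55 without the 3 libraries and 50 to 310 on leaving out single libraries. With the replicate block these 3 counts were 499, 81 and 80, and Ptpn6 averaged over treatments kept 0.86 (limma adjusted p = 0.0709). The block ended the calls of Stat3, Jak1, Shc1 and Ceacam1 averaged over treatments (limma adjusted p = 0.0692, 0.0552, 0.0597 and 0.0553). Same-numbered libraries had a median correlation of deviations of 0.0205 (-0.613 to 0.415) and 3 of 16 libraries were closest to their own number, so the numbers were not treated as pairs. The planned tests on counts were not run, since the deposited unit is FPKM. WT PBS 1, with 41 to 462 reads per phosphatase gene, limits the precision of the WT PBS group.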
